A study of Mus musculus with 6 samples.

Results

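The genes described here are 36 genes of the unfolded protein response of the endoplasmic reticulum (ER), chosen by symbol from a list of ER stress sensors, chaperones, foldases and degradation machinery. All 36 were found among the 55471 gene identifiers of the count table, and all 36 passed the filter on low counts, which 16562 genes passed. RNA was sequenced from primary cortical neurons of CD1 mouse embryos (E14.5 to E15) that had been kept in 2 uM Ara-C, an inhibitor of dividing cells. One group of 3 libraries, shControl, carried a control short hairpin RNA and is labelled WT. The other group of 3 libraries, shOpa1, carried a short hairpin RNA against Opa1, a dynamin-like GTPase that fuses the inner mitochondrial membrane, and is labelled as an Opa1 knock-down. Both groups were transduced with lentivirus on day 6 of culture and harvested on day 11, so the controls carried virus and Ara-C too. The labels call the 3 libraries of a group biological replicates and do not say whether they came from separate litters, so the p-values below measure the spread between these cultures. They do not say how many hairpin sequences were used.

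Proteins that enter the ER fold there with the help of chaperones such as BiP and of enzymes that form disulfide bonds, and those that fail are drawn back to the cytosol for destruction by the proteasome (ER-associated degradation). When misfolded proteins accumulate, 3 membrane sensors respond: IRE1, which splices the Xbp1 mRNA into the form that encodes an active transcription factor, ATF6, which is cut in the Golgi to release one, and PERK, which slows translation and raises ATF4. ATF6 is known mainly for inducing ER chaperones and Xbp1 itself, and spliced XBP1 for inducing co-chaperones and degradation factors. Neurons secrete and membrane-insert large amounts of protein and express this machinery at rest.

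The libraries held 24676709 to 32961580 counts assigned to genes. Opa1 was at 201.8, 204.6 and 201.9 counts per 1000000 assigned counts (CPM) in shControl and at 10.2, 8.64 and 8.50 CPM in shOpa1, a 22.3-fold difference. Replicate 3 of both groups stood apart from the other 4 libraries on the second principal component (-29.4 and -30.4 against 13.8 to 16.4; 25.0% of the variance). Summed neuron markers ranged from 8176 to 8543 CPM in shControl and from 5652 to 5964 CPM in shOpa1 (7 of 12 lower, 1 higher), and astrocyte markers from 252 to 428 and from 126 to 189 CPM (3 of 9 lower, 1 higher). Of the 8 microglial markers 1 passed the filter (lower, with a summed level of 5.64 to 8.17 and 3.36 to 4.77 CPM), and no marker list was at 0. Oligodendrocyte-lineage markers summed to 47.1 to 75.5 and 38.4 to 54.8 CPM (2 of 7 lower), endothelial markers to 5.07 to 8.12 and 2.48 to 5.84 CPM (1 of 3 lower), fibroblast and mural markers to 11.3 to 22.8 and 7.95 to 55.3 CPM (none of 6 called), and markers of dividing progenitors to 67.9 to 116 and 46.9 to 78.5 CPM (2 of 6 lower). Their part in the results below was not tested. In bulk RNA, fewer cells of a type and less RNA per cell cannot be told apart.

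The 36 genes did not move as one. Herpud1, Derl1, Hspa5 and Hyou1 rose in shOpa1, Dnajb9, Sel1l, Selenos, Edem3, Xbp1, Derl2, Sil1 and Ern1 fell, and 24 did not pass the test (quasi-likelihood test of edgeR; an adjusted p under 0.05, by Benjamini-Hochberg over all tested genes, is called). The 12 called genes are 33.3% of the 36, against 38.9% of all tested genes. By direction, 4 of 36 rose against 18.9% of all genes, and 8 of 36 fell against 20.0%. The median log2 fold change was 0.02 over the 36 genes and -0.01 over all genes, with 18 values above and 18 below 0. A change of at least 2-fold was found for Herpud1 among the genes that rose (3.14% of all genes) and for Dnajb9 and Sel1l among those that fell (5.65%). The groups of libraries did not overlap for 15 of the 36 genes, against 51.8% of all tested genes. The share of called genes was thus no higher than in the rest of the transcriptome, and the genes differed among themselves in sign and size.

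**Figure D1:**
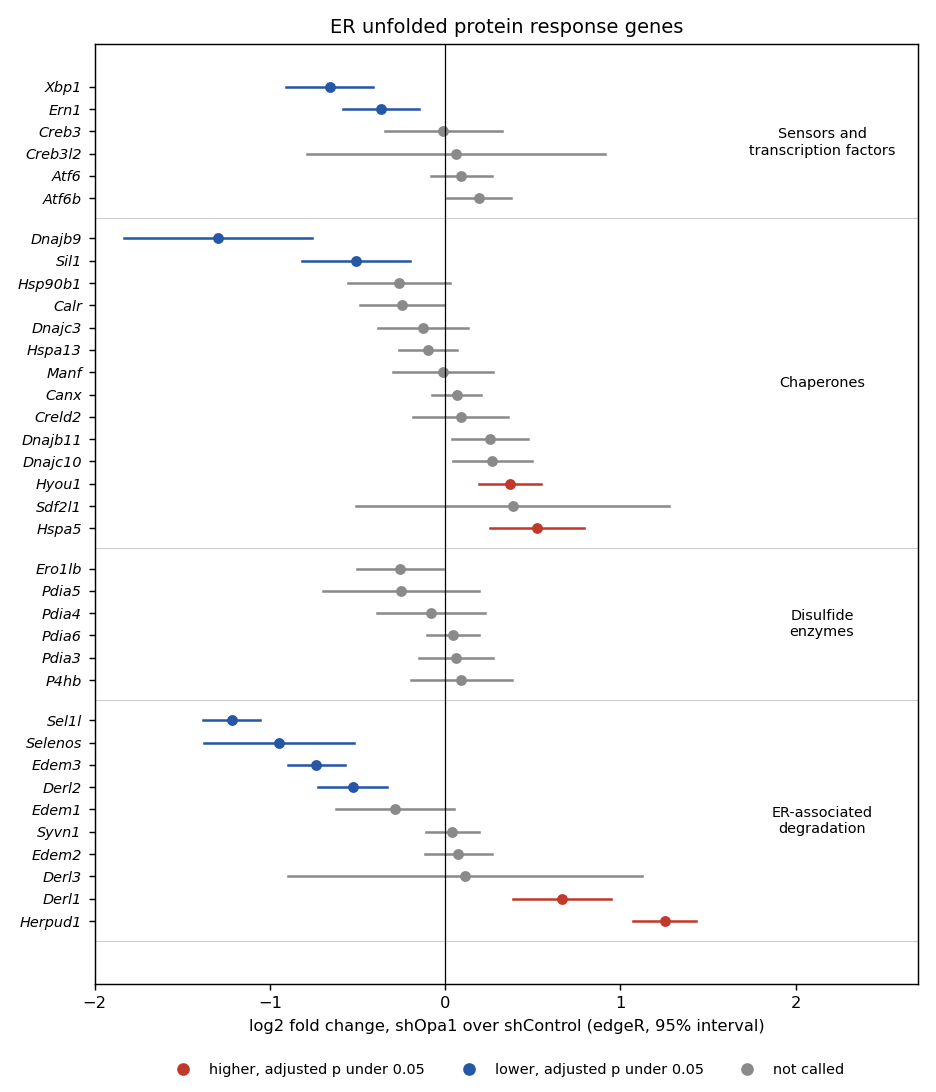
Log2 fold change of each of the 36 genes, shOpa1 over shControl, with its 95% interval from edgeR (x axis), grouped by role (y axis). Herpud1 at 1.25 and Dnajb9 at -1.30 mark the ends, and the 6 disulfide enzymes all lie between -0.26 and 0.09.

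The count depended on how the replicates were treated. The p-values and intervals in these results come from a fit with no term for the replicate number, unless another fit is named. Same-numbered libraries deviated together, and with the replicate number as a block 19 of the 36 genes passed, against 59.5% of all tested genes. By direction, 8 rose and 11 fell, against 28.8% and 30.7%. The 12 genes remained, and the 7 others were Atf6b, Dnajb11, Dnajc10 and Sdf2l1, which rose, and Calr, Ero1lb and Edem1, which fell. Scaling to library totals alone shifted the log2 fold change of all genes by a median of 0.12, and gave 4487 higher and 2500 lower genes in place of 3130 and 3312. Among the 36 genes 8 were then higher and 6 lower, against 27.1% and 15.1% of all genes (42.2% called in all). Upper-quartile scaling gave 7 higher and 8 lower, against 21.9% and 18.1% of all genes (40.0% in all). DESeq2 called the 12 genes named above, 4 higher and 8 lower, against 17.4% and 17.9% of its genes (35.3% in all). The authors' deposited table called 7 of the 36 genes higher and 11 lower at an adjusted p under 0.05, against 40.9% of its genes called in all, and held all 12 genes named above with the same sign.

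Among the 6 sensors and transcription factors 2 passed the test, 33.3% against 38.9% of all genes (median 0.02). These 2, Xbp1 and Ern1 of the IRE1 branch, fell, as did 20.0% of all genes. Xbp1 (ENSMUSG00000020484, chr11:5520659-5525893, plus strand, GRCm38), the transcription factor of the IRE1 branch, was at 96.3, 103 and 100.0 CPM in shControl and at 70.2, 66.3 and 53.0 CPM in shOpa1. All 3 shOpa1 libraries were below all 3 shControl libraries, with the lowest value in replicate 3. Xbp1 fell by 0.66 on the log2 scale (SE 0.106, edgeR adjusted p = 0.00284), from 99.7 ± 3.29 to 63.1 ± 9.02 CPM (SD, n = 3). The counts are per gene and do not separate spliced from unspliced Xbp1 mRNA, so the activity of IRE1 was not measured. Ern1 (ENSMUSG00000020715, chr11:106394650-106487852, minus strand), which encodes IRE1 alpha, was at 14.6, 15.3 and 13.8 CPM in shControl and at 10.9, 11.1 and 11.9 CPM in shOpa1. The groups did not overlap, and Ern1 fell by 0.37 (SE 0.0925, edgeR adjusted p = 0.0175). The call on Ern1 was lost without shControl replicate 1 or 2 or without shOpa1 replicate 1 or 2 (edgeR adjusted p = 0.0550, 0.0688, 0.0624 and 0.0722).

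Atf6 was at 34.1, 37.5 and 39.3 CPM in shControl and at 40.5, 39.5 and 38.2 CPM in shOpa1. The groups overlapped, and the 95% interval of its log2 difference ran from -0.08 to 0.27 (edgeR adjusted p = 0.370). Its paralog Atf6b was at 141, 161 and 139 CPM in shControl and at 161, 178 and 164 CPM in shOpa1, with no overlap, although the nearest libraries of the groups differed by less than 1 CPM. Atf6b had a log2 fold change of 0.19 (interval 0.01 to 0.37, edgeR adjusted p = 0.0907), and rose with the replicate block (edgeR adjusted p = 0.00298). Creb3 and Creb3l2, ER-anchored relatives of ATF6, had log2 differences of -0.01 and 0.06 with edgeR adjusted p = 0.957 and 0.910. Per length, in reads per kilobase per 1000000 (RPKM) in shControl, Atf6b was at 53.3, Xbp1 at 30.7, Atf6 at 4.01, Ern1 at 1.78 and Creb3l2 at 0.551.

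**Figure D2:**
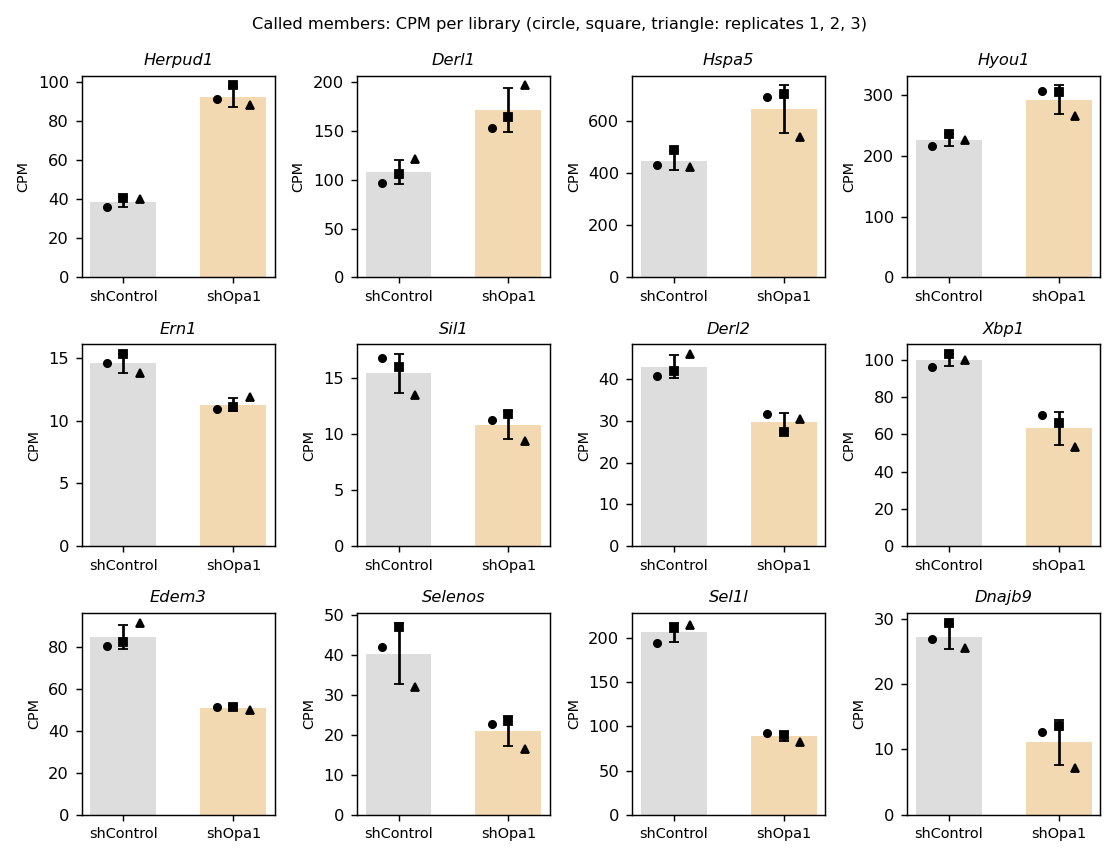
CPM of the 12 called genes in each library (y axes, each starting at 0). Bars are group means, error bars the SD over 3 libraries, and the circle, square and triangle are replicates 1, 2 and 3; no shOpa1 value overlaps the shControl values in any panel.

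Among the 14 chaperones and co-chaperones, 2 rose and 2 fell, against 18.9% and 20.0% of all genes, with a median log2 fold change of 0.03. Hspa5 (ENSMUSG00000026864, chr2:34771970-34777547, plus strand) encodes BiP, the ER Hsp70 that holds the sensors inactive at rest. Hspa5 was at 431, 489 and 424 CPM in shControl and at 693, 703 and 539 CPM in shOpa1. Every shOpa1 library was above every shControl library, and replicate 3 was the lowest of the shOpa1 libraries. Hspa5 rose by 0.53 (SE 0.114, edgeR adjusted p = 0.00987), from 448 ± 35.8 to 645 ± 91.9 CPM (SD, n = 3), or 1.44-fold. Hyou1 (ENSMUSG00000032115, chr9:44379490-44392369, plus strand), a large Hsp70 relative that exchanges the nucleotide of BiP, was at 216, 235 and 226 CPM in shControl and at 306, 304 and 264 CPM in shOpa1. Hyou1 rose by 0.37 (SE 0.0749, edgeR adjusted p = 0.00722).

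The other nucleotide exchange factor of BiP moved the opposite way. Sil1 (ENSMUSG00000024357) was at 16.8, 16.0 and 13.5 CPM in shControl and at 11.3, 11.8 and 9.41 CPM in shOpa1, with no overlap, and fell by 0.51 (SE 0.130, edgeR adjusted p = 0.0187). The call on Sil1 was lost without shControl replicate 1 or 2 (edgeR adjusted p = 0.0683 and 0.0687). Dnajb9 (ENSMUSG00000014905, chr12:44205559-44210326, minus strand) encodes ERdj4, a J-domain partner of BiP that is known to recruit BiP to IRE1 and is a textbook target of spliced XBP1. Dnajb9 was at 26.9, 29.4 and 25.5 CPM in shControl and at 12.6, 13.5 and 7.15 CPM in shOpa1. It fell 2.46-fold, a log2 fold change of -1.30 (SE 0.227, edgeR adjusted p = 0.00435), the furthest of the 36 genes from 0. The gene for BiP thus rose together with Hyou1, while the genes for 2 other partners, Sil1 and Dnajb9, fell.

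None of the other J-domain genes passed the test in the fit on which the calls rest. Dnajb11 (ERdj3) and Dnajc10 (the reductase ERdj5) had log2 differences of 0.26 and 0.27 (edgeR adjusted p = 0.0650 and 0.0595) and rose with the replicate block (edgeR adjusted p = 0.00150 and 0.000392). Both also rose with replicate 3 as a second batch (edgeR adjusted p = 0.00886 and 0.00128). Dnajc3 (p58IPK) had -0.13 (edgeR adjusted p = 0.405). Sdf2l1, a subunit that works with ERdj3, was at 16.2 and 16.7 CPM in shOpa1 replicates 1 and 2 and at 6.85 CPM in replicate 3, against 10.1, 12.9 and 7.34 CPM in shControl. Its pairwise log2 differences were 0.65, 0.35 and -0.09, and its interval ran from -0.51 to 1.28, among the widest of the 36 genes.

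Of the 4 chaperone genes with the highest levels per length, Hspa5 passed the test and the others did not. Per length in shControl, Calr was at 211 RPKM, Canx at 119.6, Hspa5 at 106 and Hsp90b1 at 86.0. Hsp90b1, the ER Hsp90 (GRP94), was at 326, 369 and 345 CPM in shControl and at 316, 317 and 233 CPM in shOpa1. The groups did not overlap, yet the log2 difference of -0.26 did not pass (interval -0.56 to 0.03, edgeR adjusted p = 0.134), and the pairs differed by -0.05, -0.22 and -0.56. Of its exon bases 15.7% lie in exons of other genes, and the counting was not set to use strand. This share was 20.8% for Creb3 and 9.25% for Manf. Among the called genes it was 5.7% for Sil1, 2.87% for Derl2 and 0.549% for Dnajb9, and the rest had no such overlap. Calr, the soluble lectin chaperone calreticulin, was at 555, 661 and 605 CPM in shControl and at 522, 564 and 449 CPM in shOpa1. These groups overlapped, with a log2 difference of -0.25 (edgeR adjusted p = 0.0941 without the replicate block and 0.00474 with it). Canx, the membrane-bound lectin calnexin, had 0.07 with an interval of -0.07 to 0.20. Hspa13, Manf and Creld2 had -0.10, -0.01 and 0.09 (edgeR adjusted p = 0.320, 0.939 and 0.584).

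None of the 6 disulfide enzymes passed the test. P4hb, the protein disulfide isomerase itself, and Pdia3, the isomerase that works with the lectin chaperones, were among the 6 highest of the 36 genes per length in shControl (81.7 and 110.3 RPKM). Their log2 differences were 0.09 (interval -0.19 to 0.38) and 0.06 (interval -0.15 to 0.27). Pdia6 had 0.05 (interval -0.10 to 0.19), Pdia4 -0.08 (interval -0.39 to 0.23) and Pdia5 -0.25 (interval -0.69 to 0.19). Ero1lb, the oxidase that recharges these isomerases, was at 19.7, 20.4 and 20.7 CPM in shControl and at 18.5, 17.6 and 14.7 CPM in shOpa1. The groups did not overlap, the log2 difference was -0.26, and the gene fell with the replicate block (edgeR adjusted p = 0.0913 without and 0.0200 with it).

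The degradation genes held the largest spread. Of 10 genes 2 rose and 4 fell, 60.0% against 38.9% of all genes, with a median of -0.12. Herpud1 (ENSMUSG00000031770, chr8:94386438-94395377, plus strand), a ubiquitin-like membrane protein that organizes the HRD1 ligase complex, was at 35.9, 40.5 and 40.2 CPM in shControl and at 91.2, 98.3 and 88.4 CPM in shOpa1. The lowest shOpa1 library lay above the highest shControl library by more than the whole shControl level. Herpud1 rose 2.38-fold, a log2 fold change of 1.25 (SE 0.0767, edgeR adjusted p = 6.88e-05), at percentile 97.7 of all tested genes. Derl1 (ENSMUSG00000022365, chr15:57869502-57892448, minus strand), a rhomboid-like protein of the channel through which substrates leave the ER, was at 96.3, 106 and 121 CPM in shControl and at 153, 164 and 197 CPM in shOpa1. Derl1 rose by 0.67 (SE 0.119, edgeR adjusted p = 0.00435), and its 3 pairs differed by 0.66, 0.63 and 0.70.

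Among the partners of these proteins Sel1l and Derl2 fell, and Syvn1 and Derl3 did not pass the test. Sel1l (ENSMUSG00000020964, chr12:91806043-91849157, minus strand), the adaptor that holds the HRD1 complex together in the ER, was at 194, 211 and 214 CPM in shControl and at 92.7, 90.7 and 82.8 CPM in shOpa1. Sel1l fell 2.33-fold (log2 fold change -1.22, SE 0.0704, edgeR adjusted p = 5.57e-05). Syvn1, the HRD1 ligase itself, was at 90.3, 102 and 96.6 CPM and at 97.3, 101 and 99.2 CPM, with an interval of -0.11 to 0.19. Within this complex the scaffold gene Herpud1 rose, the adaptor gene Sel1l fell, and the gene of the ligase stayed within the spread of its replicates. Derl2 (ENSMUSG00000018442, chr11:71007164-71019841, minus strand), the paralog of Derl1, was at 40.7, 42.1 and 46.1 CPM in shControl and at 31.6, 27.3 and 30.5 CPM in shOpa1, and fell by 0.53 (SE 0.0841, edgeR adjusted p = 0.00269). Derl3 was at 0.367 to 1.22 CPM over the 6 libraries, 12 to 38 counts, and no change was detectable at this depth.

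Edem3 (ENSMUSG00000043019, chr1:151755371-151822051, plus strand), a mannosidase that marks glycoproteins for degradation, was at 80.5, 82.3 and 91.6 CPM in shControl and at 51.4, 51.5 and 50.0 CPM in shOpa1. Edem3 fell by 0.73 (SE 0.0694, edgeR adjusted p = 0.000319), while its relatives Edem1 and Edem2 had -0.29 and 0.08 (edgeR adjusted p = 0.154 and 0.50). Edem1 fell with the replicate block (edgeR adjusted p = 0.00453). Selenos (ENSMUSG00000075701, chr7:66079649-66089405, plus strand), a selenoprotein that recruits the p97 ATPase to the membrane, was at 42.0, 47.2 and 32.0 CPM in shControl and at 22.7, 23.5 and 16.6 CPM in shOpa1. Replicate 3 was the lowest library of both groups. Selenos fell 1.93-fold (log2 fold change -0.95, SE 0.182, edgeR adjusted p = 0.00626), and its 3 pairs differed by -0.87, -0.99 and -0.92.

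The summed level of the 36 genes was nearly the same in both groups. They took 4267, 4794 and 4436 CPM in shControl and 4709, 4884 and 4189 CPM in shOpa1, a ratio of means of 1.02, and the groups overlapped. The 10 degradation genes took 651, 709 and 704 CPM in shControl and 613, 627 and 627 CPM in shOpa1, without overlap. Their mean sum went from 688 to 622 CPM. Sel1l alone went from a mean of 207 to 88.7 CPM, a larger fall than that of the sum, while Herpud1 and Derl1 rose. The direction of this sum therefore rests on Sel1l. The 14 chaperone genes took 2493, 2800 and 2614 CPM and 2896, 2974 and 2482 CPM, and the 6 disulfide enzymes 778, 899.5 and 776 CPM and 857, 921 and 763 CPM. In both of these roles the groups overlapped, with replicate 3 the lowest shOpa1 library.

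The library shOpa1 replicate 3 was low for this machinery, a pattern noticed after the values were seen. It was the lowest of the 3 shOpa1 libraries for 30 of the 36 genes (83.3%), against 41.8% of all tested genes, including 13 of 14 chaperones and 6 of 6 disulfide enzymes. What sets replicate 3 apart was not tested. The shControl library of the same number was the lowest of its group for 14 of the 36 (38.9%, against 41.4% of all genes). The median pairwise log2 difference of the 36 genes was 0.12, 0.00 and -0.18 in pairs 1, 2 and 3, while it was -0.01 in each pair over all genes. The difference had the same sign in all 3 pairs for 23 of the 36 genes (63.9%), against 74.8% of all tested genes. With pairs 1 and 2 alone, 7 of the 36 genes rose and 9 fell, against 24.8% and 26.1% of all genes (50.9% in all), and the 12 called genes remained. With replicate 3 as a second batch, 7 rose and 12 fell, Hsp90b1 among them (edgeR adjusted p = 0.0316), against 27.3% and 29.2% of all genes (56.5% in all).

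**Figure D3:**
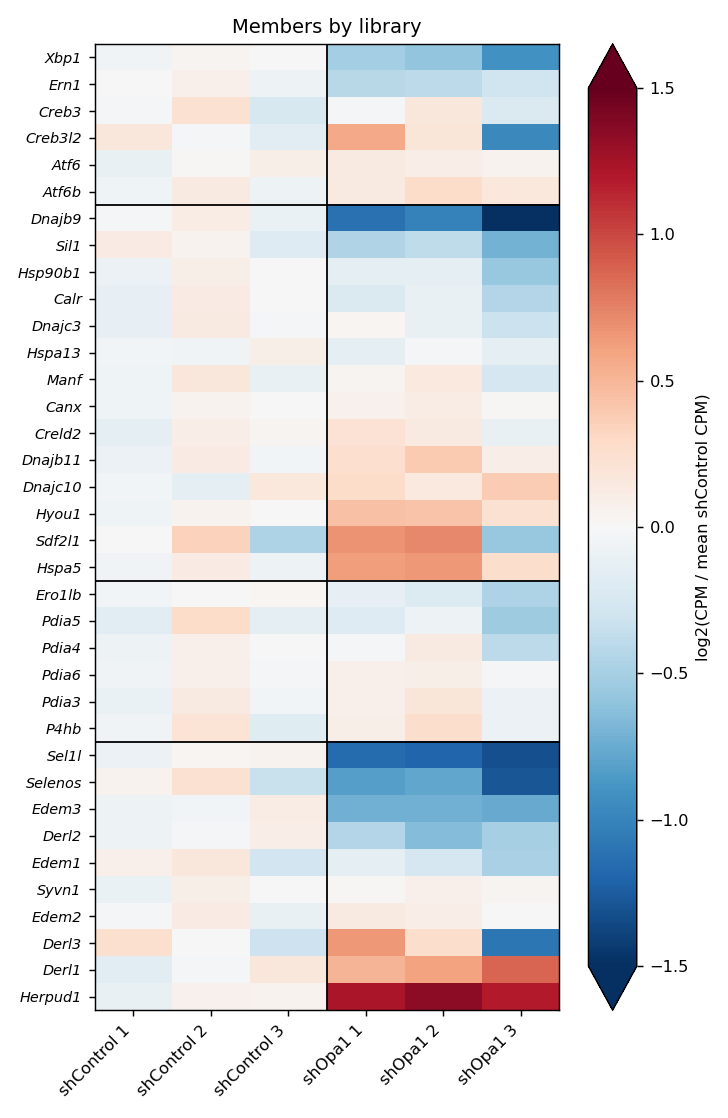
Each of the 36 genes (rows, grouped by role) in each of the 6 libraries (columns), coloured by log2 of its CPM over the mean shControl CPM; colours end at 1.5 in either direction. The shOpa1 replicate 3 column is the lowest of its group in 13 of 14 chaperone rows, all but Dnajc10, and in all 6 disulfide rows.

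Genes of the ATF6 type and of the XBP1 type were compared as 2 lists that share no gene. The types were assigned from textbook knowledge, with earlier results of these data known. The ATF6-type list held Hspa5, Hsp90b1, Hyou1, Calr, Pdia4, Herpud1, Sdf2l1, Creld2, Manf and Xbp1. Hspa5, Hyou1 and Herpud1 rose and Xbp1 fell, 4 of 10 called (40.0%, against 38.9% of all genes), with a median of 0.04. The XBP1-type list held Dnajb9, Dnajb11, Dnajc3, Pdia6, Edem1, Edem2, Derl1 and Derl2. Derl1 rose and Dnajb9 and Derl2 fell, 3 of 8 called (37.5%), with a median of -0.04. With the replicate block 6 of 10 ATF6-type genes (4 higher and 2 lower) and 5 of 8 XBP1-type genes (2 higher and 3 lower) passed, against 59.5% of all genes. Both medians were closer to 0 than the upward median shift of 0.12 that scaling to library totals alone makes. Leaving out each library in turn gave ATF6-type medians of -0.02 to 0.13 and XBP1-type medians of -0.09 to 0.02. Neither sign is thus fixed by these data. Sel1l, Syvn1 and Derl3 were set apart as targets of both factors, and of these Sel1l fell. By pair, the ATF6-type median was 0.23, 0.05 and -0.14 and the XBP1-type median 0.14, -0.13 and -0.10, so the signs differed between pairs. The difference between the lists was not tested.

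Promoter sequences were searched for exact matches to elements by which ATF6 and XBP1 act. The ER stress response element (ERSE: CCAAT, any 9 bases, CCACG), its shorter form ERSE-II (ATTGG, any 1 base, CCACG) and the unfolded protein response element (UPRE, TGACGTGG) were searched on both strands of RefSeq promoters (GRCm38.p6), from 250 bases before to 50 bases after the start. Only exact matches were counted, so near matches, such as those in the Hspa5 promoter below, stay in lower case. A gene without a match may still hold a variant of an element. Of the 36 genes 30 had a promoter entry, 1 of them (Ero1lb) through another symbol. ERSE was present in 10 of the 30 and ERSE-II in 2, with no gene holding both, and UPRE in none, against 0.119%, 0.0365% and 0.676% of all 32851 promoters. Of the 21 tested genes with an ERSE 10 were thus among the 36, a list that holds many textbook targets of these factors by choice. Hspa5, which rose, Herpud1, which rose, and Hsp90b1, which did not pass, are shown for the 250 bases before the start, each read 5′ to 3′ on its own strand with the matches in capitals. The Hsp90b1 promoter holds 1 match on each strand.

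Hspa5 (chr2:34771840-34772089, plus strand): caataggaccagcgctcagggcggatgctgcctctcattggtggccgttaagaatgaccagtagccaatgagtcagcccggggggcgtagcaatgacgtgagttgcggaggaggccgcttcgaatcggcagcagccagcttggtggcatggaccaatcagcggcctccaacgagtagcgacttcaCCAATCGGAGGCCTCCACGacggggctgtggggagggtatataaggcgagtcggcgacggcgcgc

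Herpud1 (chr8:94386179-94386428, plus strand): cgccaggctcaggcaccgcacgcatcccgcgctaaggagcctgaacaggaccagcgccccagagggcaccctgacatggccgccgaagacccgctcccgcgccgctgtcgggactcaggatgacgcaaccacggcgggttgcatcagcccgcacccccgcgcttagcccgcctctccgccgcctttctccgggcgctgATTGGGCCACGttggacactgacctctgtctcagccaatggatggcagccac

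Hsp90b1 (chr10:86705445-86705694, minus strand): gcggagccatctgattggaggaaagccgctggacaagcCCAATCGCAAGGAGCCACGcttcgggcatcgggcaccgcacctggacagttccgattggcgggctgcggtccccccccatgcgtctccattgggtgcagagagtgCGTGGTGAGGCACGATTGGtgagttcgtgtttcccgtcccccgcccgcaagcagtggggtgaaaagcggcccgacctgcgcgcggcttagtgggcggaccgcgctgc

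The elements of the 9 other genes are shown for the spacer between the fixed bases, with 5 bases on either side and the fixed bases in capitals, on the strand of the match.

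Dnajb11 (ERSE-II, chr16:22857847-22857867, plus strand): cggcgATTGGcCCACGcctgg

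Dnajc3 (ERSE, chr14:118937822-118937850, plus strand): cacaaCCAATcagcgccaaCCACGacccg

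Calr (ERSE, chr8:84847070-84847098, plus strand): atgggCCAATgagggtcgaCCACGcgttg

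Canx (ERSE, chr11:50325795-50325823, minus strand): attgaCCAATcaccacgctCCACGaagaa

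Creld2 (ERSE, chr15:88819515-88819543, minus strand): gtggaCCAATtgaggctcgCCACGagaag

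Pdia6 (ERSE, chr12:17266486-17266514, plus strand): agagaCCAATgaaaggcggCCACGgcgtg

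Ero1lb (ERSE, chr13:12565677-12565705, minus strand): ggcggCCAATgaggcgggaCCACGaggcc

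Syvn1 (ERSE, chr19:6046527-6046555, plus strand): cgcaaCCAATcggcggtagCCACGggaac

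Derl3 (ERSE, chr10:75893237-75893265, minus strand): gctagCCAATggggaagtcCCACGgtaga

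In Hspa5 the match lay at -65 to -47 from the start, in Herpud1 at -52 to -42, in Syvn1 at -44 to -26 and in Dnajc3 at -105 to -87. Of the 12 genes with ERSE or ERSE-II, Hspa5 and Herpud1 rose, none fell and 10 did not pass, with a median of 0.06. Of the 18 genes with a promoter entry and no match, none rose and 7 fell, with a median of -0.17; of all tested genes 18.9% rose and 20.0% fell. Over all tested genes with any of the 3 elements, 36 of 150 rose and 24 fell, beside the same shares, and their median was 0.06. Most of these, 121 genes, hold UPRE, which none of the 36 genes holds. Of the 21 tested genes with an ERSE, 10 of them among the 36, 3 rose and 2 fell, with a median of 0.05. The split of the 36 genes by promoter match changed with the replicate block. Among the genes with a match, Dnajb11 then rose too and Calr and Ero1lb fell, and Hsp90b1 fell with replicate 3 as a second batch. Among those without one, Atf6b, Dnajc10 and Sdf2l1 then rose and Edem1 fell too. The 10 that hold a match and did not pass were Hsp90b1, Calr, Canx, Creld2, Dnajb11, Dnajc3, Pdia6, Ero1lb, Syvn1 and Derl3. Atf6, Hspa13, Hyou1, Sil1, Manf and Derl1 were without a promoter entry. Hyou1 and Derl1, which rose, and Sil1, which fell, were therefore not searched and are outside this split.

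The genes that fell were also described by a sequence of their 3′ untranslated regions (UTRs). GAAACTA, a 7-base sequence that an earlier analysis picked on these same fold changes, was searched in the longest annotated 3′ UTR of each gene, and the counts are a description with no test. It was present in 9.63% of 13850 tested genes, of which 50.3% fell, against 18.7% of those without it. Among the 36 genes 5 held 1 copy each. Of these Dnajb9, Sel1l, Edem3 and Ern1 fell and Atf6 did not pass, with a median of -0.73. The 3′ UTRs of these 5 genes were 1395 to 5205 bases long, and those of the 31 others 146 to 5170 bases. Genes with and without the sequence were not matched for this length. Their sites are shown with 11 bases on either side, on the strand of the mRNA, with the 7 bases in capitals.

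Atf6 (chr1:170705609-170705637, minus strand, GRCm38): tcctacctaagGAAACTAttagtattcta

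Dnajb9 (chr12:44205902-44205930, minus strand, GRCm38): tgtgagtaagaGAAACTAtaaatatttac

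Edem3 (chr1:151821928-151821956, plus strand, GRCm38): tatttctaatgGAAACTAtgtactgtgat

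Ern1 (chr11:106394834-106394862, minus strand, GRCm38): tcctctttgtgGAAACTAaaatattcttt

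Sel1l (chr12:91806550-91806578, minus strand, GRCm38): cagatacgagaGAAACTAtttctggatgc

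Among the 31 genes without a copy 4 rose and 4 fell (Xbp1, Sil1, Derl2 and Selenos), with a median of 0.05. The 3 genes that fell most, Dnajb9, Sel1l and Selenos, thus included 1 without a copy. No ATF6-type gene held a copy, and Dnajb9 was the single XBP1-type gene with one. Selenos, Xbp1, Derl2 and Sil1 fell with neither this sequence nor, where a promoter entry was present, an exact ERSE match.

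**Figure D4:**
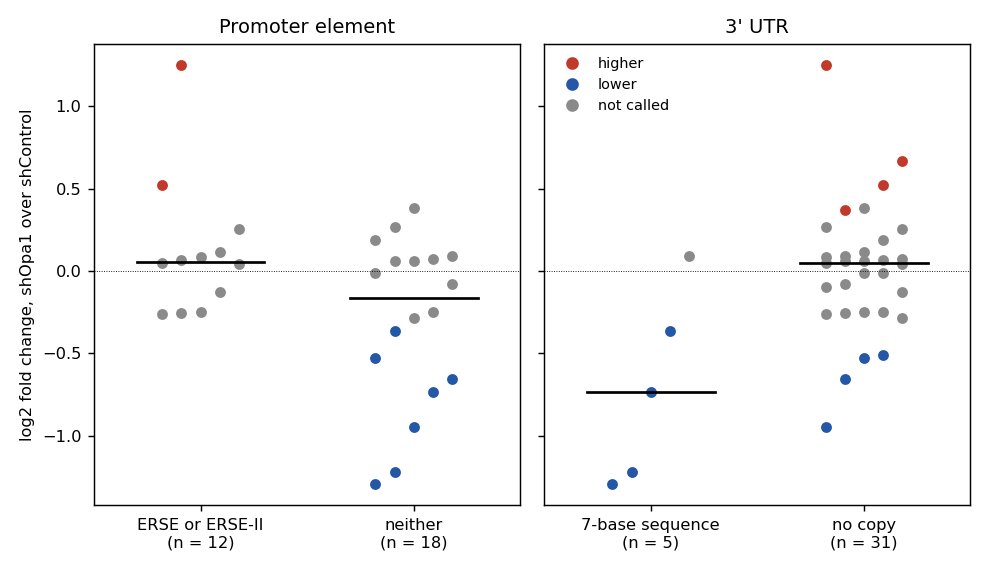
Log2 fold change of the genes (y axis, 1 point per gene, black line the median). Left, with and without an exact ERSE or ERSE-II match in the promoter (12 and 18 genes). Right, with and without the 7-base sequence in the 3′ UTR (5 and 31 genes), a sequence picked on these same fold changes. In the fit with no term for the replicate, no gene with a promoter element fell, and 4 of the 5 genes with the 3′ UTR sequence fell. Calr and Ero1lb fell with the replicate block, and Calr, Ero1lb and Hsp90b1 with replicate 3 as a second batch.

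The rest of the ER protein machinery, 131 further genes in 8 lists, is given for comparison. The lists were chosen with earlier results of these data known. Of 129 tested, 42 rose and 19 fell, against 18.9% and 20.0% of all genes (47.3% called, against 38.9%), with a median of 0.10. With the replicate block 95 passed, against 59.5% of all genes. In the PERK arm 8 of 10 genes rose and none fell, against 18.9% and 20.0% of all genes, with a median of 1.27. Trib3, a pseudokinase induced by ATF4 and CHOP, rose from 3.92 ± 0.570 to 22.4 ± 0.671 CPM (SD, n = 3; log2 fold change 2.51). Chac1, a glutathione-degrading enzyme, rose by 1.96, and Ddit3, which encodes CHOP, rose from 26.6 ± 1.95 to 80.7 ± 2.83 CPM. Eif2ak3, the gene of PERK itself, had 0.22 (edgeR adjusted p = 0.158) and rose with the replicate block (edgeR adjusted p = 0.0444). That made 9 of 10 higher with the block, against 28.8% of all genes. As background, ATF4 and its targets are also raised by kinases other than PERK that phosphorylate eIF2 alpha.

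Among the partners of the sensors 1 of 12 tested rose and 2 fell, against 18.9% and 20.0% of all genes, with a median of -0.07. Mbtps2, the site-2 protease that makes the second of the cuts releasing ATF6, was at 40.0, 37.5 and 45.6 CPM in shControl and at 9.80, 10.2 and 8.59 CPM in shOpa1. Mbtps2 fell by 2.10 (SE 0.110, edgeR adjusted p = 3.83e-05), further than any of the 36 genes, while Mbtps1, which makes the first cut, had 0.03 (edgeR adjusted p = 0.847). Tmbim6, an ER membrane protein known to restrain IRE1, fell by 0.47, and Creb3l1, another ER-anchored factor, rose by 0.49. Rtcb, the ligase that joins the Xbp1 mRNA after IRE1 has cut it, had -0.18 (edgeR adjusted p = 0.0576) and fell with the replicate block (edgeR adjusted p = 0.00733).

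In the lists for entry into and exit from the ER, more genes rose than fell, and some did not pass the test. Beside each count in this paragraph stand the shares of all tested genes, 18.9% higher and 20.0% lower. In the translocon and signal peptidase list 9 of 19 rose and 3 fell (median 0.27): the signal receptor gene Srpr rose by 0.74, the channel gene Sec61a2 by 0.72, and the signal peptidase gene Spcs3 fell by 1.79. In the list of COPII coats and ER retrieval 10 of 22 rose and 3 fell (median 0.20): Mcfd2 rose by 0.92 and Sec13 by 0.70, and Sar1b, the GTPase that starts coat assembly, fell by 2.20, from 60.2 ± 3.45 to 13.1 ± 1.37 CPM. Glycan genes were split 3 and 3 of 18 (median 0.05), with Stt3a at 0.63, Krtcap2 at -0.66 and Uggt2 at -0.51. Further foldases had 4 higher and 1 lower of 18 (median 0.09), with Tmx4 at 0.84, Tmx2 at 0.49 and Ero1l, the paralog of Ero1lb, at -0.78.

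Further degradation genes had 7 higher and 3 lower of 20 (median 0.10), against 18.9% and 20.0% of all genes. Among them were Fam8a1, a partner of HRD1, at 0.59, Nploc4, a cofactor of p97, at 0.36 and the ubiquitin-conjugating enzyme Ube2j2 at -0.63. ER-phagy receptors and shaping proteins had none higher and 4 lower of 10 (median -0.18), beside the same shares. Retreg1 was at -1.34, Atl1 at -0.70 and Reep5 at -0.38, all 3 past the test. Of these 129 genes 10 held GAAACTA, Spcs3, Sar1b, Ero1l, Uggt2 and Atl1 among them, and 6 of the 10 fell (median -0.64), against 13 of 118 without it (median 0.14). Over all tested genes 50.3% of those with the sequence fell, and 18.7% of those without it. It was picked on these same fold changes, and UTR length was not matched here either. Mbtps2 and Retreg1 held no copy.

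**Figure D5:**
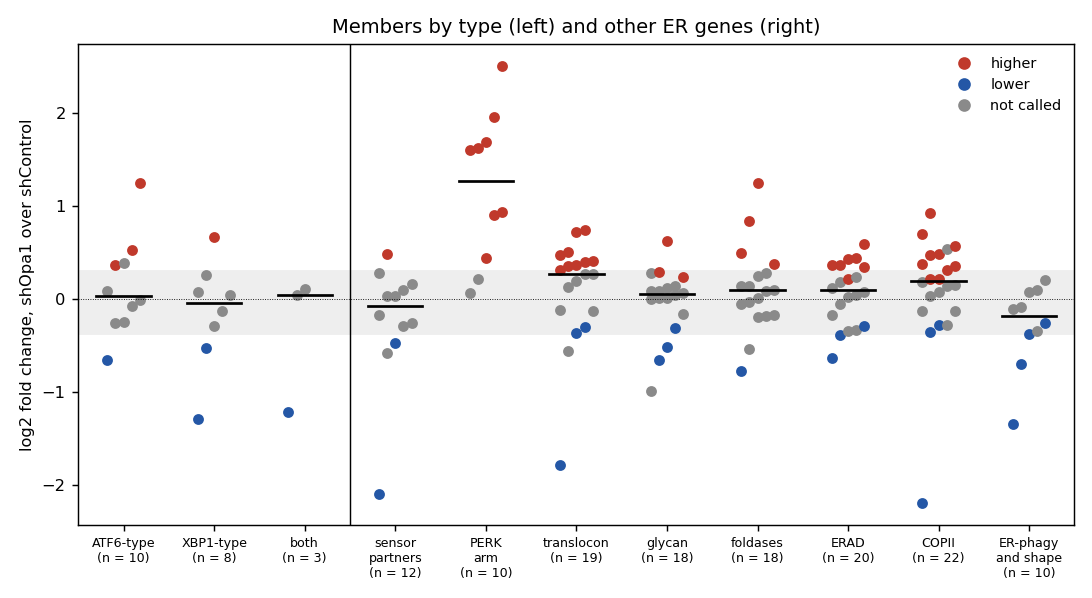
Log2 fold change of single genes (y axis) for the ATF6-type, XBP1-type and shared lists (left of the line) and for the 8 lists of other ER genes (right); black lines are medians and the grey band spans the quartiles of all tested genes, -0.38 to 0.30. The PERK arm is the list with the highest median, 1.27, and the medians of the other lists shown lie within the band.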

How the data were processed

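RNA-seq libraries of 3 shControl and 3 shOpa1 cultures were compared. The 36 genes, their types and the other gene lists were chosen with earlier results of these data known. The deposited counts of read pairs per gene come from featureCounts 1.6.0, per the file headers, run on the Ensembl 99 annotation of GRCm38 with no option for strand or multi-mapping reads, although the labels' protocols name a stranded kit. HISAT2, DESeq2 and the build mm10 are named in the submitters' processing notes. The authors' deposited comparison holds log2 fold changes, their test score, p-values and normalized count signal; its fold changes differed by no more than 1e-05 from a DESeq2 fit with replicate 3 as a second batch, for all genes.

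Of 55471 identifiers, 55144 carried a symbol and 16562 passed filterByExpr. The deposited counts were tested with edgeR 4.0.16 (trimmed mean of M-values scaling, robust quasi-likelihood F test, R 4.3.3), adjusted by Benjamini-Hochberg over all tested genes. A standard error is the log2 fold change over the root of F. CPM used scaled library sizes, and RPKM the deposited gene lengths. On simulated counts (16562 genes, 200 changed 2-fold) this test recovered 148 changed genes and called 17 unchanged ones. The simulation held no effect shared by same-numbered libraries, and changed a smaller share of genes than was called here. Its counts therefore do not give the recovery or false calls in these data. Depth of 24676709 to 32961580 counts limits low genes. Replicates of 1 group differed beyond counting noise (chi-square per degree of freedom 6.69 to 34.1), so none were merged.

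Same-numbered libraries deviated together from their group means (r = 0.59, 0.61 and 0.71 across genes). Each shControl library correlated most with the shOpa1 library of its own number. The labels' replicate numbers were therefore taken as pairs for the pairwise differences and the replicate block. The main fit held no term for the pair, so its p-values and intervals do not use the pairing. Alternatives were the replicate block, a second batch, pairs 1 and 2 only, DESeq2 1.42.0, limma-voom (limma 3.58.1), other scalings and filters, and each library left out. Named were Opa1, all 36 genes, with full values for those called and for Ern1, Atf6, Xbp1, Hspa5, Hsp90b1 and Calr, and up to 3 called genes with the smallest p in each other list. Values per library of Atf6b, Ero1lb, Syvn1 and Sdf2l1, and the genes Mbtps1, Rtcb and Eif2ak3, were added after their values were seen. Promoters are RefSeq's (GRCm38.p6), and 3′ UTRs were cut from GENCODE M21 (GRCm38).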

Additional observations from a re-analysis of the deposited data

How the results depend on the processing

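The 12 called genes of the 36 kept their direction in all 16 alternatives, and no gene of the 36 was called with the opposite sign in any of them. Calls of the 12 were lost for Ern1 and Sil1 alone: with library totals only (edgeR adjusted p = 0.0701 and 0.0518) and without single libraries, as given above. With the replicate block as pairing, 9851 genes passed in place of 6442, 19 of the 36 (8 higher) in place of 12 (4 higher), 95 other ER genes in place of 61, and 5 of 8 XBP1-type genes in place of 3. With replicate 3 as a second batch 19 of the 36 passed (7 higher) and 5 XBP1-type genes, against 56.5% of all genes. With pairs 1 and 2 only 7 rose among the 36 and 5 XBP1-type genes passed, against 50.9% of all genes. Upper-quartile scaling gave 7 higher of the 36 and library totals alone 8, against 21.9% and 27.1% of all genes. DESeq2, limma-voom, relative log expression scaling and a mean of at least 50 counts each gave 12 called genes of the 36. Leaving out each library in turn gave 10 to 14 called genes of the 36 and 4589 to 6626 of all genes. Genes of few counts, such as Derl3, and genes with one library apart, such as Sdf2l1, are limited by depth and by the number of replicates. The cause of these differences was not tested.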
